A study of Mus musculus with 9 samples.

Results

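Of the 24493 gene rows in the TPM table, 10 were examined here: the epidermal growth factor receptor genes Egfr, Erbb2 and Erbb3, the ligand genes Areg, Ereg, Hbegf, Tgfa, Btc and Epgn, and Errfi1, whose product inhibits these receptors. They were chosen by symbol, and all 10 symbols were found. TPM express a gene's share of all transcripts in a library, corrected for transcript length, so that levels of different genes can be compared within a library.

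The receptors of this family are tyrosine kinases that pair up when a ligand binds, and the pair then starts the RAS-ERK and PI3K-AKT cascades. The ligands are made as membrane-anchored precursors that proteases such as ADAM17 and ADAM10 cut free, so they can act on the cell that made them or on neighbours. In the mouse pancreas, EGFR signalling is known for its part in the conversion of acinar cells to duct-like cells and in the early lesions that oncogenic RAS drives.

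The study followed 6620c1, a mouse pancreatic tumor cell line, in a medium poor in nutrients and oxygen, and sequenced total RNA at day 0, day 2 and day 14, with 3 libraries a day. The medium, listed for all 9 libraries, day 0 included, was DMEM with glucose at 2.5 mM, serum (fetal calf) at 0.5% and amino acids cut to 20%, and nothing else was added. The labels give neither an oxygen level nor what distinguishes day 0 beyond its time, and with no culture kept for the same time in full medium, time and deprivation cannot be told apart. Nothing says that the libraries of a day came from separate cultures, so the p-values measure only the spread between these libraries, which may be technical.

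TPM keep no sequencing depth, so no counting error could be given. Libraries held 11569 to 11633 rows with at least 1 TPM at day 0, 12033 to 12085 at day 2 and 12595 to 12717 at day 14, and between 8.27% and 22.5% of each total lay in the single row Mir6236. On the log2(TPM + 1) scale, the median gene stood 0.22 higher at day 14 than at day 0 and 0.25 higher at day 14 than at day 2, but fell by 0.02 at day 2 against day 0. Changes of the 9 tested genes at day 14 are therefore also given relative to these medians, but not those of pathway genes. The epithelial markers Krt8, Krt18, Krt19, Krt7, Epcam and Cdh1 summed to 10785 to 11441 TPM at day 0, 5456 to 7572 TPM at day 2 and 6786 to 8543 TPM at day 14, with 4 of 6 lower at day 2 than at day 0 and, at day 14, 2 higher and 3 lower than at day 0. Fibroblast marker sums were 0.161 to 0.264 TPM at day 0, 1.03 to 3.12 TPM at day 2 and 0.720 to 1.65 TPM at day 14. The highest, in day 2 replicate 2, was mostly Pdgfra (2.81 TPM). Endothelial marker sums were 0 to 0.115 TPM, 0.0283 to 0.346 TPM and 0.677 to 1.13 TPM at days 0, 2 and 14. The 6 leukocyte markers summed to 2.09 to 2.46 TPM at day 0, 3.12 to 4.96 TPM at day 2 and 6.20 to 8.54 TPM at day 14, most of it Cd68, and the 5 acinar markers to 1.27 to 1.53 TPM, 1.08 to 2.81 TPM and 4.39 to 5.92 TPM at days 0, 2 and 14. The defining markers Ptprc and Pecam1 reached at most 0.515 and 0.535 TPM, while Adgre1, Cd3e, Lyz2, Cpa1, Amy2a5 and Ptf1a were listed at 0 in most libraries. The part of these sums in the changes of the 10 genes was not tested.

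Promoters of 4 of the genes are shown. Those of the ligand Areg and the inhibitor Errfi1 were picked, after all windows had been searched for motifs, because they hold a CRE, and Tgfa and Btc were the ligands higher at day 2 than at day 0. RefSeq promoter windows, 250 bases before to 50 bases after a gene's start on GRCm38.p6, were found for 7 of the 10 genes. They are printed 5′ to 3′ on the gene's strand. Capitals mark matches, on either strand, to 5 motifs: the CRE TGACGTCA, the TATA box TATAAA, the GC box GGGCGG, the HIF core ACGTG and the AP-1 site TGACTCA. Windows are those of Areg (chr5:91139349-91139648, plus strand), Errfi1 from its second listed start (chr4:150854820-150855119, plus strand), Tgfa (chr6:86194972-86195271, plus strand) and Btc (chr5:91402945-91403244, minus strand).
Areg: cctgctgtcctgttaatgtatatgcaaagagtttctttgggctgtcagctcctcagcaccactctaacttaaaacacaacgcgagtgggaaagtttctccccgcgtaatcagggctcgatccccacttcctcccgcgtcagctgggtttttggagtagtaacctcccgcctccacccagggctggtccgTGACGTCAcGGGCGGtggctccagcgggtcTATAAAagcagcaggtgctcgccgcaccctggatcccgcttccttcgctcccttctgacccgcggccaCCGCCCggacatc
Errfi1: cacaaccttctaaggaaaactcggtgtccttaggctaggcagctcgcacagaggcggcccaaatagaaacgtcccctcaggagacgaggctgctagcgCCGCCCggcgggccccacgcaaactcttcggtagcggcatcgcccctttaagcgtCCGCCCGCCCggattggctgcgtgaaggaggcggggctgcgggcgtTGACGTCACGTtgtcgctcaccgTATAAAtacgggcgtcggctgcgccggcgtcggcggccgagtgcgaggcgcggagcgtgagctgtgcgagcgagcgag
Tgfa: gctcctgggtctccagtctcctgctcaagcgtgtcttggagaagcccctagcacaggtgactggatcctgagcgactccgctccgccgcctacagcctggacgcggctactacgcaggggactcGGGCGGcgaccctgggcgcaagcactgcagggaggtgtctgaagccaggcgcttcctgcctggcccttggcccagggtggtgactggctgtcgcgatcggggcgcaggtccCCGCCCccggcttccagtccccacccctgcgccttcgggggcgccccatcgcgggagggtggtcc
Btc: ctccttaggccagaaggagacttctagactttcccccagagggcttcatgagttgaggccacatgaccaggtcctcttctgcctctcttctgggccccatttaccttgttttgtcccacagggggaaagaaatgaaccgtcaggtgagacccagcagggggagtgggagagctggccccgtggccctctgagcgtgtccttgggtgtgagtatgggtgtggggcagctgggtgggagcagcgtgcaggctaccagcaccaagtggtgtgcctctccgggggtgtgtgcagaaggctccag

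The Areg and Errfi1 windows each held 1 CRE, the sequence that CREB and ATF family proteins bind, and 1 TATA box downstream of it. For Errfi1 this was its second start, and the window of its first start held none of the 5 motifs. No CRE was in the windows of Tgfa, Btc, Egfr, Erbb2 or Epgn. The CRE began at base 190 of the Areg window and at base 200 of the Errfi1 window, and the TATA box at bases 220 and 223. A CRE was present in 1.79% of the 32851 RefSeq promoter windows of this length and a TATA box in 13.6%. Errfi1 also held 1 HIF core match, present in 19.6% of windows, which overlapped its CRE. GC boxes, present in 35.7% of windows, numbered 2 in Areg, 3 in Errfi1 and 2 in Tgfa, and the Btc window held none of the 5 motifs. The AP-1 sequence, found in 5.2% of windows, was in none of the 4. In RefSeq's order on chromosome 5, Epgn, Ereg, Areg and Btc are consecutive protein-coding genes.

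**Figure D1:**
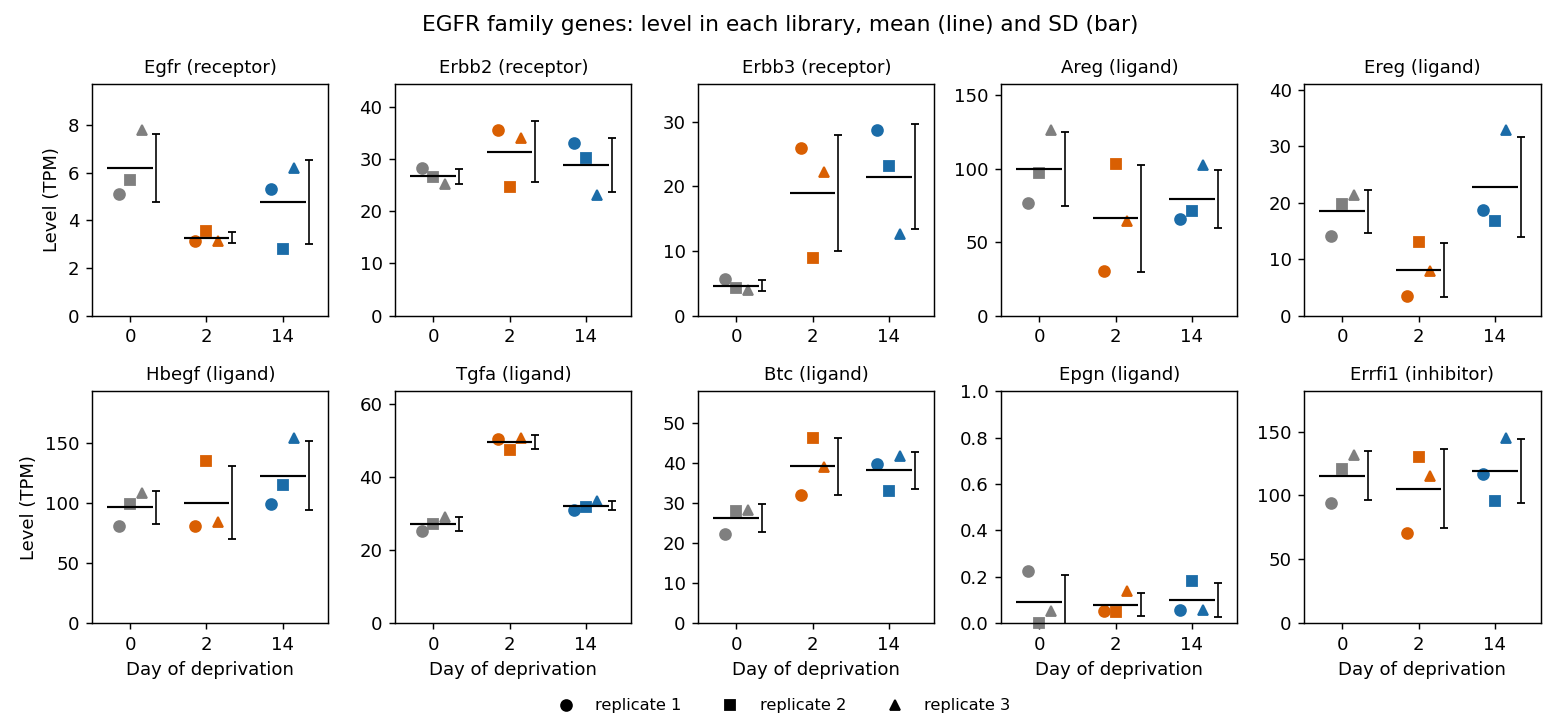
Level of each of the 10 genes in TPM (vertical axes, each starting at 0) at day 0, day 2 and day 14. Points are libraries and bars are means with SD, n = 3 a day. Erbb3 averaged 4.65 TPM at day 0, 19.0 TPM at day 2 and 21.5 TPM at day 14, while Tgfa was highest at day 2 and Ereg lowest at day 2.

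Among the receptors, Erbb3 was higher and Egfr lower after 2 days, and Erbb2 did not pass the test at either time. Erbb3, which has little kinase activity of its own, binds neuregulins and recruits PI3K once its partner has phosphorylated it, had 25.8, 8.88 and 22.3 TPM at day 2 and 28.7, 23.2 and 12.6 TPM at day 14, against 5.67, 4.27 and 3.99 TPM at day 0. Every later library lay above every day 0 library, although day 2 replicate 2 and day 14 replicate 3 were the lowest of their days. In 66.5% of all genes tested for day 2 against day 0, and in 66.6% for day 14 against day 0, the libraries likewise had no overlap, in one direction or the other. Erbb3 averaged 19.0 ± 8.94 TPM after 2 days, 21.5 ± 8.15 TPM after 14 days and 4.65 ± 0.902 TPM on day 0 (SD, n = 3 each), which is 4.09-fold higher at day 2 and 4.63-fold higher at day 14 than at day 0. By limma on log2(TPM + 1), adjusted over all 12693 genes tested, Erbb3 rose by 1.71 at day 2 against day 0 (SE 0.39, adjusted p = 0.00456) and by 1.93 at day 14 against day 0 (SE 0.39, adjusted p = 0.00289, 1.71 relative to the median gene). Day 14 and day 2 differed by 0.22, with a 95% interval from -0.66 to 1.11 (limma, adjusted p = 0.698). It was -0.03 relative to the median gene and below 0 under median-of-ratios and quantile scaling.

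Egfr, the receptor that all 6 ligands bind, had 3.12, 3.55 and 3.14 TPM at day 2 and 5.33, 2.82 and 6.22 TPM at day 14, against 5.11, 5.70 and 7.79 TPM at day 0. Day 2 lay below day 0 in every library, and day 14 overlapped both other days. On the log2(TPM + 1) scale the change at day 2 was -0.74 against day 0 (SE 0.24, limma adjusted p = 0.0241). Without day 0 replicate 3, day 2 replicate 1 or day 2 replicate 3 it missed the threshold, at limma adjusted p-values of 0.0897, 0.0597 and 0.0614. It also did so once the 20 most abundant rows were removed (0.0517) and with no filter on low values. At day 14 the change against day 0 was -0.35, with a 95% interval from -0.89 to 0.19 (limma, adjusted p = 0.238), or -0.57 relative to the median gene. Under quantile scaling it was -0.83 and was called lower (limma adjusted p = 0.0187).

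Erbb2, the receptor with no known ligand and the preferred partner of ERBB3, had 35.5, 24.7 and 34.0 TPM at day 2 and 33.1, 30.2 and 23.0 TPM at day 14, against 28.2, 26.6 and 25.2 TPM at day 0. Its libraries overlapped between all days. The differences were 0.21 at day 2 against day 0 (95% interval -0.17 to 0.60, limma adjusted p = 0.303) and 0.09 at day 14 against day 0 (-0.29 to 0.48, limma adjusted p = 0.661), and the day 14 difference was -0.13 relative to the median gene and below 0 under median-of-ratios and quantile scaling. In these bulk samples, fewer cells of a kind and less RNA per cell cannot be told apart.

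The receptor sum therefore changed in makeup. Erbb3 made up 40.1%, 23.9% and 37.4% of the TPM of the 3 receptors at day 2 and 42.8%, 41.2% and 30.2% at day 14, against 14.6%, 11.7% and 10.8% at day 0. Erbb2 made up 55.1%, 66.5% and 57.3% at day 2 and 49.3%, 53.8% and 55.0% at day 14, against 72.3%, 72.7% and 68.1% at day 0. Erbb2 was still the most abundant receptor in each of the 9 libraries.

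The 6 ligands moved in different directions. Tgfa was higher at day 2 than at both other times, Btc was higher at both later times than at day 0, and Ereg was lower at day 2 than at both other times. Areg and Hbegf, the most abundant ligands, passed no test, and Epgn was near 0. Counting receptors, ligands and Errfi1 together, 3 of 9 tested genes rose and 2 fell by day 2, against 27.1% higher and 31.9% lower among all genes tested. At day 14 against day 0, 2 of 9 were higher and 0 lower (limma; 0 lower at an unadjusted p under 0.05 as well), against 36.2% and 18.8% of all genes. At day 14 against day 2, 1 was higher and 1 lower, against 27.4% and 3.79%. Under median-of-ratios scaling that last comparison had 0 higher and 1 lower, against 13.1% and 11.1% of all genes. Called in either direction were thus 5, 2 and 2 of the 9 genes, against 59%, 55.1% and 31.2% of all genes, so the counts stood near or below the background.

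Tgfa encodes TGF-alpha, a ligand of EGFR alone. It had 50.5, 47.3 and 50.8 TPM at day 2 and 31.0, 31.9 and 33.4 TPM at day 14, against 25.3, 27.1 and 28.9 TPM at day 0. The days did not overlap, day 2 being the highest and day 0 the lowest, and 41.3% of all genes tested had no overlap between day 14 and day 2. The mean was 49.5 ± 1.94 TPM on day 2 and 27.1 ± 1.83 TPM on day 0 (SD, n = 3 each), a 1.83-fold difference. The log2 change was 0.85 at day 2 against day 0 (SE 0.09, limma adjusted p = 6.89e-05) and -0.61 at day 14 against day 2 (95% interval -0.82 to -0.40, limma adjusted p = 0.00168), the second being -0.86 relative to the median gene. Day 14 against day 0 gave 0.24 (95% interval 0.02 to 0.45, limma adjusted p = 0.0582), which is 0.02 relative to the median gene, and it passed the threshold with the 20 most abundant rows removed (limma adjusted p = 0.0314) and with no filter (0.0397).

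Btc encodes betacellulin, which binds EGFR and ERBB4. Btc had 32.1, 46.5 and 39.1 TPM at day 2 and 39.9, 33.1 and 41.8 TPM at day 14, against 22.3, 28.1 and 28.4 TPM at day 0. All later libraries lay above all day 0 libraries, while day 2 and day 14 overlapped. The log2 change was 0.55 at day 2 (SE 0.16, limma adjusted p = 0.0155) and 0.53 at day 14 (SE 0.16, limma adjusted p = 0.0211), both against day 0. Relative to the median gene the change at day 14 was 0.31, and under median-of-ratios scaling it was 0.31 with a limma adjusted p of 0.110. Leaving out day 0 replicate 1 ended both calls (limma adjusted p = 0.0606 at day 2 and 0.0786 at day 14), and the day 14 call also ended without day 14 replicate 1 (0.0568) or day 14 replicate 3 (0.0656).

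Ereg encodes epiregulin, a weakly binding ligand of EGFR and ERBB4. Ereg had 3.46, 13.0 and 7.87 TPM at day 2 and 18.7, 16.7 and 32.8 TPM at day 14, against 14.2, 19.8 and 21.4 TPM at day 0. Day 2 lay below both other days in every library, and day 14 overlapped day 0. The log2 change was -1.22 at day 2 against day 0 (SE 0.40, limma adjusted p = 0.0245) and 1.47 at day 14 against day 2 (SE 0.40, limma adjusted p = 0.0215), or 1.23 relative to the median gene. Day 14 stood 0.25 above day 0 (limma adjusted p = 0.613), or 0.03 relative to the median gene. The day 2 call ended when replicate 2 or 3 of day 0, or replicate 1 or 3 of day 2, was left out. Limma adjusted p-values were then 0.0507 to 0.0744, and the value without day 2 replicate 1 was -0.78. That call also ended with no filter on low values. The day 14 call ended under median-of-ratios scaling (limma adjusted p = 0.0525) and quantile scaling (0.0553), and without day 2 replicate 3 (0.0541) or day 14 replicate 3 (0.0690). It also ended in a fit of only the groups compared.

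Areg encodes amphiregulin, which binds EGFR alone. Areg had 30.4, 103 and 64.5 TPM at day 2 and 65.4, 70.9 and 102 TPM at day 14, against 76.3, 96.7 and 126 TPM at day 0, and the days overlapped. The log2 difference at day 2 against day 0 was -0.72, with a 95% interval from -1.60 to 0.16 (limma, adjusted p = 0.140). It came to -1.12 without day 2 replicate 2 (limma, adjusted p = 0.0212). That library had the highest Areg of day 2, so the larger fall follows from leaving it out and is no test. Day 14 differed from day 0 by -0.32 (limma, adjusted p = 0.503), or by -0.54 relative to the median gene. The ratio of Areg to its chromosomal neighbour Ereg was 8.77, 7.95 and 8.19 at day 2 and 3.49, 4.24 and 3.11 at day 14, against 5.38, 4.89 and 5.90 at day 0. This ratio of TPM did not overlap between any pair of days, although the level of Areg itself did. How many other gene pairs separate in this way was not counted, so this is only a description. Single genes had no overlap in 66.5% for day 2 against day 0, 66.6% for day 14 against day 0 and 41.3% for day 14 against day 2. Areg and Ereg were both highest in replicate 3 at day 0, replicate 2 at day 2 and replicate 3 at day 14.

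Hbegf encodes heparin-binding EGF-like growth factor, which binds EGFR and ERBB4. Hbegf had 80.6, 135 and 84.5 TPM at day 2 and 98.8, 115 and 154 TPM at day 14, against 80.9, 99.3 and 109 TPM at day 0. Its libraries overlapped between days. The difference from day 0 was 0.03 at day 2 (95% interval -0.49 to 0.54, limma adjusted p = 0.933) and 0.33 at day 14 (-0.18 to 0.85, limma adjusted p = 0.240), or 0.11 at day 14 relative to the median gene. Epgn, the gene of epigen, was listed in TPM at 0.224, 0 and 0.0533 on day 0, at 0.0535, 0.0493 and 0.137 on day 2 and at 0.0563, 0.182 and 0.0552 on day 14. It lay under the filter on low values and was not tested.

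Errfi1 encodes MIG6, a cytoplasmic protein that binds the kinase domains of EGFR and its relatives and blocks them, and whose transcription EGFR signalling itself induces. Errfi1 had 70.3, 129.9 and 116 TPM at day 2 and 117, 95.6 and 145 TPM at day 14, against 94.2, 121 and 131 TPM at day 0. The days overlapped. The difference from day 0 was -0.16 at day 2 (95% interval -0.71 to 0.38, limma adjusted p = 0.582) and 0.04 at day 14 (-0.51 to 0.59, limma adjusted p = 0.897), or -0.18 at day 14 relative to the median gene. The sign at day 2 was positive under quantile scaling and after removal of the 20 most abundant rows, and the sign at day 14 was negative under median-of-ratios scaling.

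**Figure D2:**
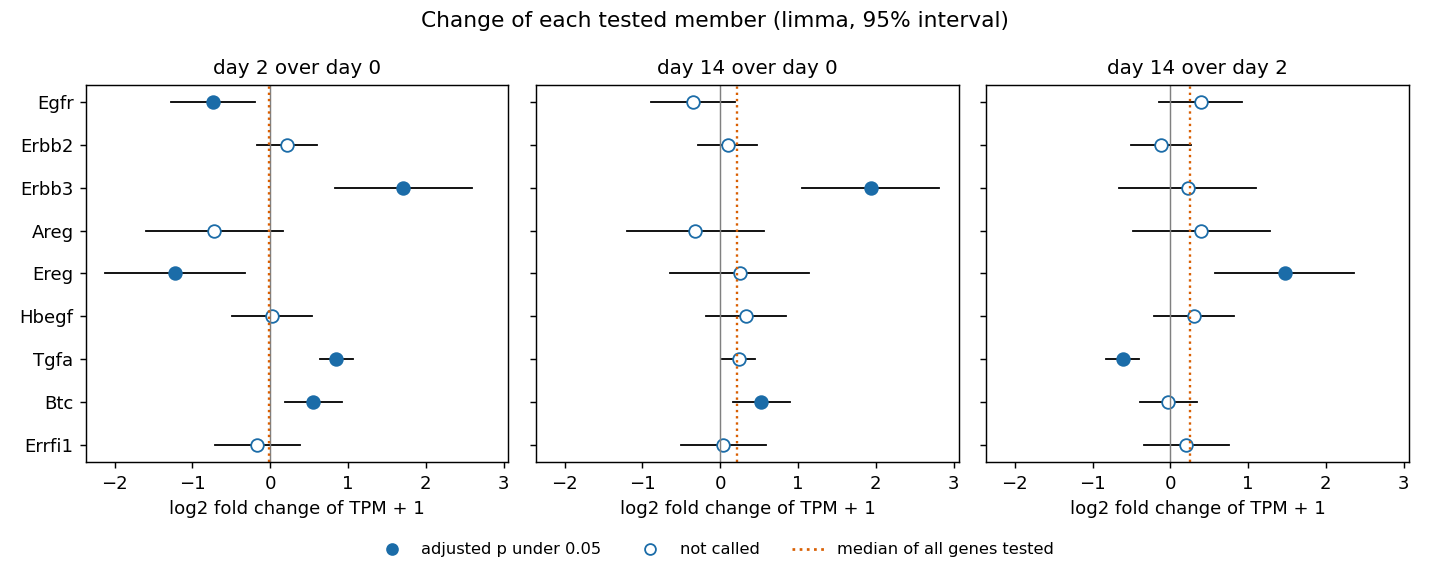
Log2 fold change on the log2(TPM + 1) scale with its 95% limma interval for the 9 tested genes, for day 2 over day 0, day 14 over day 0 and day 14 over day 2. Erbb3 stood at 1.71 and 1.93 above day 0, Tgfa at 0.85 for day 2 over day 0, and Ereg at -1.22 for day 2 over day 0 and at 1.47 for day 14 over day 2, the 1.47 being a call lost under median-of-ratios and quantile scaling.

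Set against the receptors, the ligands together were the more abundant in every library. The TPM of the 6 ligands summed to 219, 271 and 313 on day 0, 197, 345 and 247 on day 2 and 254, 268 and 365 on day 14. Those of the 3 receptors summed to 39.0, 36.5 and 37.0 on day 0, 64.5, 37.1 and 59.4 on day 2 and 67.1, 56.2 and 41.9 on day 14. The ligand sums overlapped between days, and the receptor sums of day 2 and day 14 reached higher than any of day 0 except in day 2 replicate 2, which lay within the day 0 range.

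The ratio of the sums was 3.05, 9.30 and 4.15 at day 2 and 3.78, 4.76 and 8.71 at day 14, against 5.62, 7.42 and 8.48 at day 0. The mean log2 ratio was 2.29 ± 0.83 at day 2 and 2.43 ± 0.621 at day 14, against 2.82 ± 0.302 at day 0 (SD, n = 3 each), and the ranges overlapped. In day 2 replicate 2 and day 14 replicate 3 the ratio was above every day 0 library, and in the other 4 later libraries it was below every day 0 library. Areg and Hbegf made up 56.3%, 69.1% and 60.3% of the ligand sum at day 2 and 64.7%, 69.4% and 70.4% at day 14, against 71.7%, 72.3% and 74.9% at day 0.

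**Figure D3:**
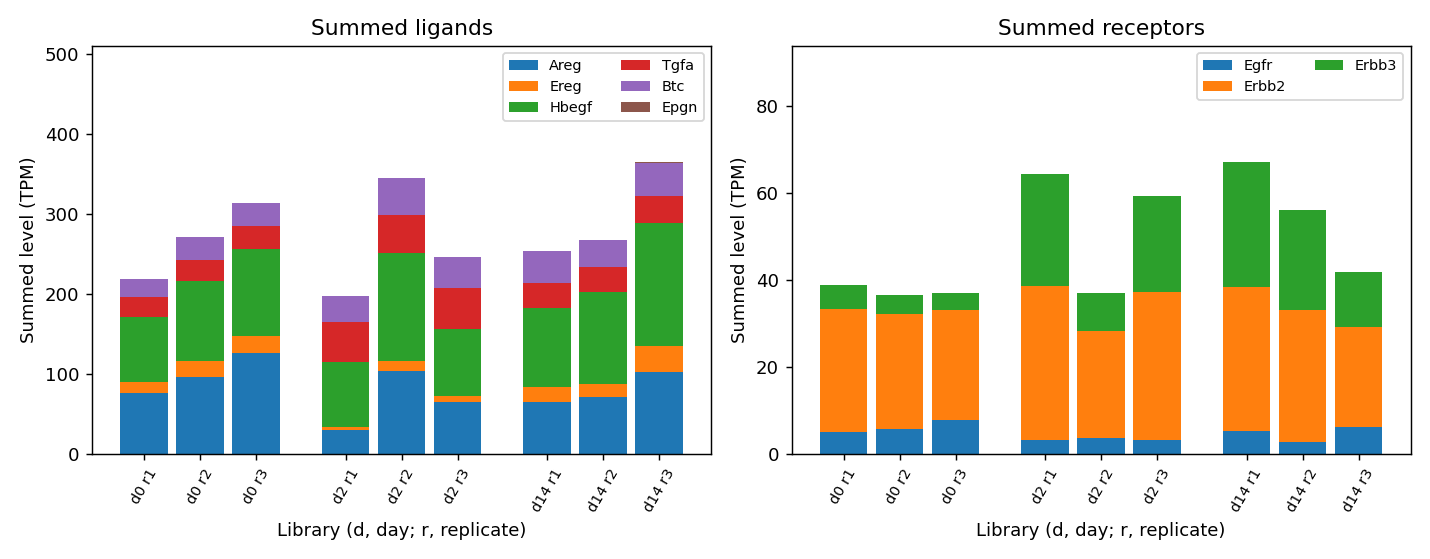
Stacked levels in TPM of the 6 ligands (left) and the 3 receptors (right), with 1 bar a library and 1 colour a gene. Receptor sums were 36.5 to 39.0 TPM at day 0 and reached 64.5 TPM at day 2 and 67.1 TPM at day 14, with the added height mostly in the Erbb3 segment, while the ligand sums of the 3 days overlapped.

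By mean TPM, the order of the genes at day 0 was Errfi1, Areg, Hbegf, Tgfa, Erbb2, Btc, Ereg, Egfr, Erbb3 and Epgn. The first 3 did not differ beyond their spread, nor did Tgfa, Erbb2 and Btc, nor Egfr and Erbb3. At day 2 Errfi1, Hbegf, Areg and Tgfa each overlapped the next, and so did Btc, Erbb2, Erbb3, Ereg and Egfr, with gaps between Tgfa and Btc and between Egfr and Epgn. At day 14 the order was Hbegf, Errfi1, Areg, Btc, Tgfa, Erbb2, Ereg, Erbb3, Egfr and Epgn, with gaps below Areg, below Erbb3 and below Egfr. Erbb3 thus overlapped Egfr at day 0 and lay above Egfr in every library at day 14.

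A pattern within days was noticed after the values were seen and is given with no test. In each of the 3 days the libraries ranked by Hbegf stood in the same order as by Areg, and those ranked by Erbb2 or Erbb3 stood in the reverse order. Errfi1, Ereg, Btc, Tgfa and Egfr had the order of Areg in 2 of 3 days. Of the 12692 other tested genes, 4.14% had the order of Areg in all 3 days and 2.15% the reverse. With day 2 replicate 2 and day 14 replicate 3 both left out, an alternative chosen after seeing the data, the values at day 2 against day 0 were 2.16 for Erbb3, 0.37 for Erbb2, -1.12 for Areg and 0.43 for Btc. These libraries had the lowest Erbb2 and Erbb3 and the highest Areg of their days, so the larger differences of these 3 genes follow from the choice and are no test.

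**Figure D4:**
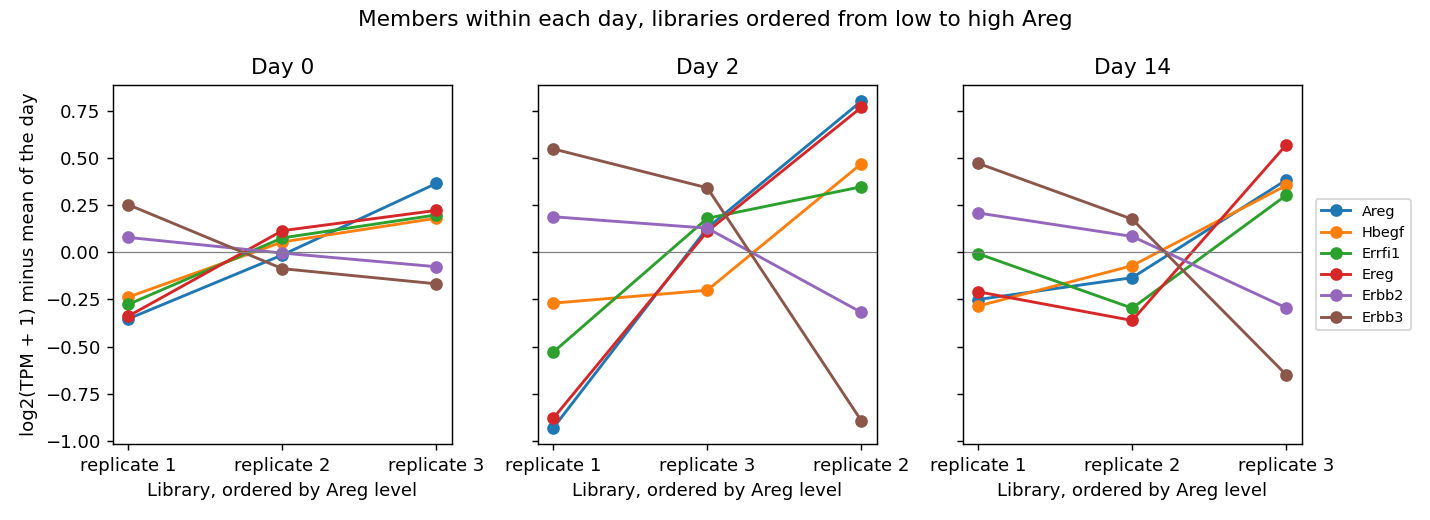
Deviation of 6 genes from their day's mean on the log2(TPM + 1) scale, with the libraries of each day placed from low to high Areg. Lines join values of 1 gene. In each of the 3 days Hbegf was higher where Areg was higher and Erbb2 and Erbb3 were lower, while Ereg and Errfi1 had the order of Areg in 2 of 3.

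The other genes of the family were Erbb4, Egf and the neuregulins. Erbb4, the remaining receptor, was listed at 0 in 6 of 9 libraries and nowhere above 0.0348 TPM, and Nrg3 nowhere above 0.0359 TPM, so neither was tested. Nrg1, a neuregulin that binds ERBB3 and ERBB4, had 6.09, 11.6 and 4.85 TPM at day 2, against 18.5, 23.6 and 22.3 TPM at day 0, a log2 change of -1.47 (limma adjusted p = 0.00232). At day 14 Nrg1 had 16.7, 9.66 and 17.2 TPM, -0.57 from day 0 (limma adjusted p = 0.131). Nrg1 was called lower at day 14 under median-of-ratios scaling (limma adjusted p = 0.0361) and quantile scaling (0.0430).

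Nrg2, another neuregulin, had 1.84, 1.53 and 1.42 TPM at day 2 and 1.24, 1.36 and 1.74 TPM at day 14, against 3.82, 4.58 and 3.75 TPM at day 0. Both changes passed the test, at -0.96 and -1.05 (limma adjusted p = 0.000406 and 0.000373). Nrg4, a neuregulin that binds ERBB4, had 7.01, 8.08 and 3.99 TPM at day 14, against 1.49, 1.47 and 1.35 TPM at day 0, a rise of 1.55 (limma adjusted p = 0.000744). Egf had 1.36, 1.69 and 1.21 TPM at day 2 and 1.11, 1.14 and 1.49 TPM at day 14, against 0.860, 0.589 and 0.601 TPM at day 0. Egf was under 1 TPM in every day 0 library and passed the filter only through the later days, where it was higher. Its changes of 0.52 (limma adjusted p = 0.0143) and 0.42 (0.0403) were both lost under quantile scaling, where the day 14 sign was negative, and the day 14 call also under median-of-ratios scaling (0.0945).

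The genes around the receptors were counted in lists by role, and their counts at day 14 moved with the scaling. For all genes, 4601 higher and 2389 lower calls at day 14 against day 0 became 3458 and 3651 under median-of-ratios scaling, and 3474 and 481 at day 14 against day 2 became 1658 and 1408. Median-of-ratios counts are therefore given beside each count for day 14. Against day 0, all genes were called higher in 27.1% and lower in 31.9% at day 2, and higher in 36.2% and lower in 18.8% at day 14, the last 2 being 27.2% and 28.8% under median-of-ratios scaling. At day 2 against day 0, 3438 higher and 4046 lower became 4563 and 3457, or 34.9% and 26.4% of 13083 genes, after removal of the 20 most abundant rows.

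Of 10 tested genes for shedding and trafficking of the ligands, 2 rose and 5 fell by day 2 against day 0. These were 20% and 50%, against 27.1% and 31.9% of all genes. By day 14, 2 rose and 3 fell against day 0, or 20% and 30% against 36.2% and 18.8%. Under median-of-ratios scaling 1 rose and 4 fell, or 10% and 40% against 27.2% and 28.8%. The list also holds Timp3, the gene of a metalloproteinase inhibitor, named after its values were seen. It had 66.9, 74.2 and 58.6 TPM at day 0 and 17.9, 43.2 and 20.5 TPM at day 2. At day 14 it had 78.8, 101.6 and 138.5 TPM. Adam17, the main sheddase of AREG, EREG, HBEGF and TGF-alpha, had 11.1, 12.8 and 13.1 TPM at day 2 and 12.4, 12.9 and 11.4 TPM at day 14, against 19.0, 19.6 and 18.8 TPM at day 0. It fell by 0.60 at day 2 and by 0.61 at day 14 (limma adjusted p = 0.00117 and 0.00141). Adam10, the main sheddase of betacellulin, had 41.1, 43.0 and 40.3 TPM at day 2 and 44.9, 39.1 and 39.3 TPM at day 14, against 28.2, 33.1 and 35.6 TPM at day 0, log2 changes of 0.36 and 0.34 (limma adjusted p = 0.0215 and 0.0282). The day 14 call was lost under median-of-ratios scaling (adjusted p = 0.326). Adam8 fell by 1.61 and by 1.50, the rhomboid protease gene Rhbdl2 fell by 1.24 and by 0.95, and Adam15 rose by 0.56 and by 0.70 at day 2 and day 14 against day 0.

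No gene for receptor endocytosis and degradation was called lower at day 2 or day 14 against day 0. Among all genes, 31.9% were called lower at day 2 and 18.8% at day 14. Under median-of-ratios scaling the day 14 count was also 0, against 28.8% of all genes. Of the 18, 44.4% (8 genes) were called higher at day 2, against 27.1% of all genes, and 9 genes were called higher at day 14, which is 50% against 36.2%. Under median-of-ratios scaling the day 14 count was 4 genes, or 22.2% against 27.2% of all genes. The median change of the list was 0.38 at day 2 and 0.32 at day 14, against -0.02 and 0.22 for all genes. Quantile scaling gave 7 higher and 1 lower at day 14, or 38.9% and 5.56% against 22.4% and 26.5% of all genes. Cd2ap, an adaptor that binds CBL, had 196, 243 and 197 TPM at day 2 and 232, 245 and 254 TPM at day 14, against 112, 133 and 133 TPM at day 0, changes of 0.74 and 0.95 (limma adjusted p = 0.000502 and 0.000199). Usp8, a deubiquitinase that acts on EGFR at endosomes, had 45.3, 55.4 and 44.7 TPM at day 2 and 53.0, 48.9 and 56.6 TPM at day 14, against 28.8, 29.1 and 28.8 TPM at day 0, changes of 0.72 and 0.85 (limma adjusted p = 0.000486 and 0.000296).

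Among 18 genes of the adaptors and the RAS-ERK cascade, 3 rose and 5 fell at day 2 against day 0. These were 16.7% and 27.8%, against 27.1% and 31.9% of all genes. The counts became 9 and 4 after removal of the 20 most abundant rows, or 50% and 22.2% against 34.9% and 26.4% of all genes. Under quantile scaling they were 7 and 2, or 38.9% and 11.1% against 29.1% and 27.3%. At day 14 against day 0, 8 were higher and 3 lower, or 44.4% and 16.7% against 36.2% and 18.8%. Under median-of-ratios scaling 4 were higher and 6 lower, or 22.2% and 33.3% against 27.2% and 28.8%. Gab1, a docking protein that links these receptors to PI3K and SHP2, had 5.74, 4.57 and 3.98 TPM at day 2 and 7.28, 6.82 and 5.44 TPM at day 14, against 0.888, 0.588 and 0.699 TPM at day 0. It rose by 1.73 and by 2.12 (limma adjusted p = 2.44e-05 and 2.65e-05). With every day 0 library under 1 TPM, Gab1 passed the filter only through the later days, where it was high. These p-values are therefore not independent of the rise. Hras, a RAS GTPase gene, had 27.4, 24.6 and 20.4 TPM at day 2 and 33.9, 28.9 and 33.1 TPM at day 14, against 77.1, 80.6 and 81.4 TPM at day 0, and fell by 1.69 and by 1.29 (limma adjusted p = 5.36e-06 and 6.18e-05).

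In the PI3K-AKT, PLC gamma and STAT arm, 6 of 18 genes rose and 4 fell at day 2 against day 0. These were 33.3% and 22.2%, against 27.1% and 31.9% of all genes. By day 14, 11 were higher than at day 0 and 2 lower, or 61.1% and 11.1% against 36.2% and 18.8%. Under median-of-ratios scaling they were 7 and 3, or 38.9% and 16.7% against 27.2% and 28.8%. Quantile scaling gave 5 and 2, or 27.8% and 11.1% against 22.4% and 26.5%. Akt1, a kinase gene of the pathway, had 111, 130.5 and 119.8 TPM at day 2 and 150.5, 169 and 179 TPM at day 14, against 265, 261 and 255 TPM at day 0. It fell by 1.11 at day 2 and by 0.65 at day 14 (limma adjusted p = 1.81e-05 and 0.000659), and every later library lay below every day 0 library. Pdpk1, the kinase that activates AKT, rose by 0.59 and by 0.88 (limma adjusted p = 0.00729 and 0.00105).

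The list of genes acting at the receptors is mostly of inhibitors, Fam83a and Fam83b being none. Against day 0, day 2 had 2 of its 10 tested genes higher and 4 lower, or 20% and 40% against 27.1% and 31.9% of all genes. This balance turned to 4 and 2 after removal of the 20 most abundant rows, or 40% and 20% against 34.9% and 26.4% of all genes. Under quantile scaling it was 4 and 3, or 40% and 30% against 29.1% and 27.3%. At day 14 against day 0, 6 were higher and 1 lower, or 60% and 10% against 36.2% and 18.8%. Under median-of-ratios scaling they were 6 and 2, or 60% and 20% against 27.2% and 28.8%. Lrig2, a membrane protein of the LRIG family, rose by 1.08 and by 1.07 (limma adjusted p = 0.000787 and 0.00111). Ptprj, a receptor phosphatase gene, stood at 0.13 at day 2 (limma adjusted p = 0.608) and rose by 0.97 at day 14 (0.00350). Socs3, an inducible suppressor of cytokine signalling, fell by 0.48 and by 0.84 (limma adjusted p = 0.00414 and 0.000284).

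Genes whose transcription ERK signalling is known to drive moved both ways. Of 15, 5 rose and 3 fell at day 2 against day 0, or 33.3% and 20% against 27.1% and 31.9% of all genes. Under quantile scaling 7 rose and 2 fell, or 46.7% and 13.3% against 29.1% and 27.3%. At day 14 against day 0, 4 rose and 1 fell, or 26.7% and 6.67% against 36.2% and 18.8%. Under median-of-ratios scaling 4 rose and 3 fell, or 26.7% and 20% against 27.2% and 28.8%. Egr1, an immediate early transcription factor gene, had 8.85, 34.5 and 17.7 TPM at day 2 and 19.1, 37.8 and 57.8 TPM at day 14, against 4.70, 3.15 and 3.43 TPM at day 0, and rose by 1.99 and by 2.93 (limma adjusted p = 0.00594 and 0.000957). Egr1 was highest in day 2 replicate 2 and day 14 replicate 3, the libraries with the highest Areg of their days. At day 0 it went the other way, being highest in replicate 1, the library with the lowest Areg (76.3 TPM). A link between these genes was not tested. Spred1 and Spred2, inhibitors of the RAS-ERK cascade, rose by 0.94 and 0.58 at day 2 (limma adjusted p = 0.000191 and 0.00177) and by 0.71 and 0.56 at day 14 (0.00128 and 0.00287). The other genes called at day 2, named after their values were seen, were Ier3 and Dusp4, which rose by 1.06 and 1.18 (limma adjusted p = 0.00575 and 0.0206), and the 3 that fell. Ccnd1, the gene of cyclin D1, had 79.6, 183 and 137 TPM at day 2, against 489, 565 and 600.2 TPM at day 0, and fell by 2.12 (limma adjusted p = 0.000183). Phlda1 fell by 1.06 and the AP-1 subunit gene Fosl1 by 1.24 (limma adjusted p = 5.01e-05 and 0.0151). Spry4 rose by 0.85 at day 14 (limma adjusted p = 0.00921), a call lost under quantile scaling (0.137). Etv4, an ETS factor gene, fell by 0.44 at day 14 (limma adjusted p = 0.00351) and stood at 0.04 at day 2.

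**Figure D5:**
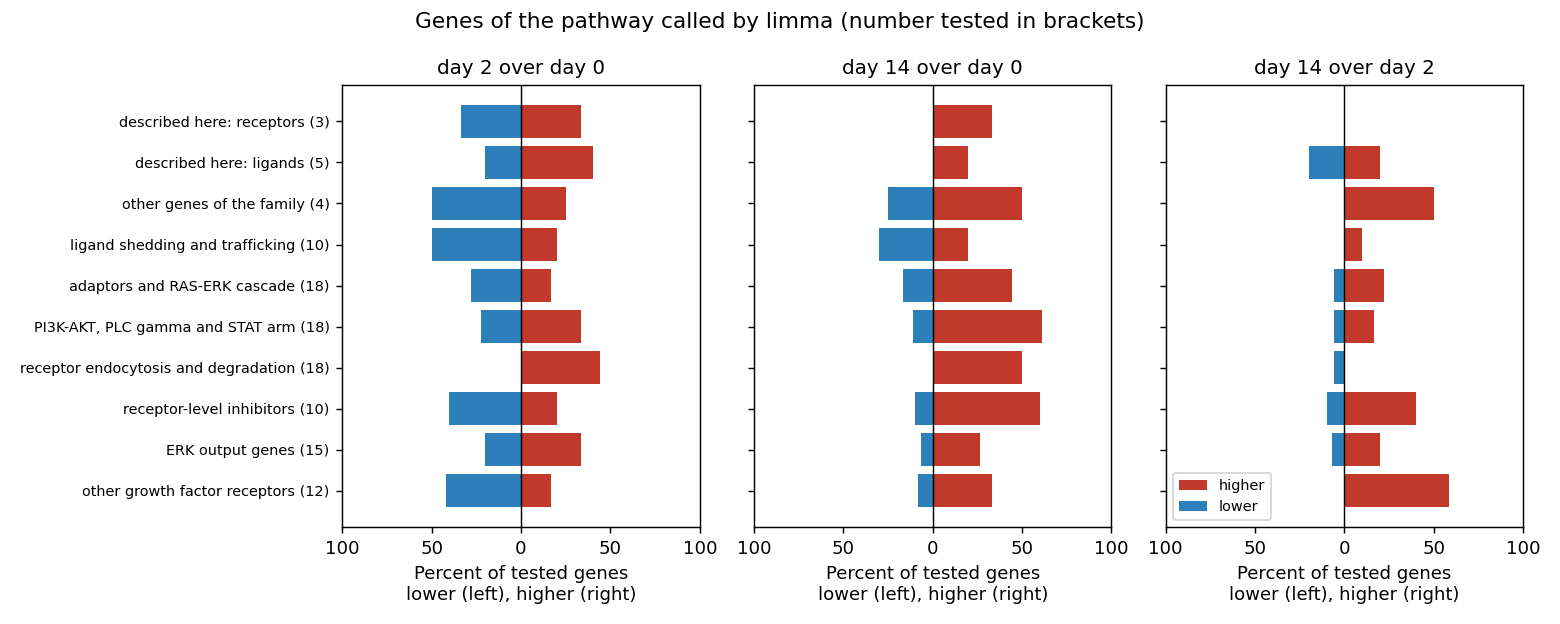
Percent of the tested genes of each list called higher (right) and lower (left) by limma at an adjusted p under 0.05, for day 2 over day 0, day 14 over day 0 and day 14 over day 2. Receptor endocytosis and degradation had 8 of 18 genes higher and 0 lower at day 2 and 9 of 18 higher at day 14 over day 0, the last being 4 of 18 under median-of-ratios scaling. Among all genes tested, 27.1% were higher and 31.9% lower at day 2 and 36.2% higher at day 14, the last being 27.2% under median-of-ratios scaling.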

How the data were processed

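The authors quantified RNA-seq reads with Salmon, per the submitters' processing notes, and deposited 1 table of TPM per gene symbol for 9 libraries. Its version, index, build and annotation were not given in the sources used here. Column names carry a prefix, WT, that the labels do not explain. TPM were tested as log2(TPM + 1) with limma 3.58.1 in R 4.3.3 (1 mean per day, all 9 libraries, eBayes with a trend, two-sided), with Benjamini-Hochberg adjustment over the 12693 rows with at least 1 TPM in at least 3 libraries and calls at an adjusted p under 0.05; 11800 rows were left out. Fold changes on this scale understate those of low genes. The script was tested on simulated data. Groups came from the time label, and 3 comparisons were made.

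Members and gene lists were chosen with earlier results of these data known, so none is independent evidence. All 10 members are named. Of each list, the text names the pair with the largest called change at day 14 against day 0, the largest called change in the other direction, and every called gene where 5 or fewer were called. One gene that this rule selects is not reported here. Counts over lists are descriptions with no test of the list. The within-day order, the motifs and the genes most like Erbb3 were chosen after values were seen. The ratio of Areg to Ereg was likewise not planned. Alternatives were pseudocounts of 0.1 and 5, other filters, median-of-ratios and quantile scaling, removal of the 20 most abundant rows, a fit without trend or on the groups compared, the replicate block and leaving out each library. Replicate numbers were not used to pair the libraries in the main fit. Deviations of same-numbered libraries correlated between -0.0709 and 0.318, which does not settle whether they are paired. Python 3.11.15 and matplotlib 3.10.9 drew the figures.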

Additional observations from a re-analysis of the deposited data

Results flagged for a closer look

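The change from day 0 differed between day 2 and day 14 for 2 of the 9 tested genes, by the limma test of day 14 against day 2. The same test called 31.2% of all genes, so this count was not above the background. For Ereg the difference was 1.47 (adjusted p = 0.0215), with 18.7, 16.7 and 32.8 TPM at day 14 against 3.46, 13.0 and 7.87 TPM at day 2. The Ereg difference was 1.22 under median-of-ratios scaling (limma adjusted p = 0.0525) and 1.21 under quantile scaling (0.0553). For Tgfa the difference was -0.61 (limma adjusted p = 0.00168), with 31.0, 31.9 and 33.4 TPM at day 14 against 50.5, 47.3 and 50.8 TPM at day 2. With 3 libraries a day, no single library could be tested as standing apart.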

How the results depend on the processing

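Over 21 alternatives, 536 of 564 values of the 9 genes kept their side of the threshold, 21 lost their call, 7 gained one, and 0 called values changed sign. Most of these values had no call to lose. The main fit called 3 genes higher and 2 lower at day 2 against day 0. It called 2 and 0 at day 14 against day 0, and 1 and 1 at day 14 against day 2. Erbb3 at both later times against day 0, and Tgfa at day 2 (against day 0) and in the later step from day 2 to day 14, kept their calls in each alternative. Genes lower at day 2 than at day 0 numbered 2 and became 0 with no filter, 1 with a mean of at least 5 TPM, 1 with the 20 most abundant rows removed and 0 to 3 with 1 library left out. Genes higher at day 14 than at day 0 numbered 2 and became 1 under median-of-ratios scaling, 3 (with Tgfa) with no filter or with the 20 most abundant rows removed and 1 to 2 with 1 library left out; genes lower there numbered 0 and became 1 (Egfr) under quantile scaling. Genes higher at day 14 than at day 2 numbered 1 and became 0 under median-of-ratios scaling, 0 under quantile scaling, 0 with only the groups compared and 0 to 2 with 1 library left out. All genes called at day 14 against day 2 numbered 3955, and 2616 with only the groups compared. The log2 ratio of ligands to receptors without the most abundant ligand was 2.18 at day 0 and 1.66 at day 14, and without the most abundant receptor 4.61 at day 0, 3.61 at day 2 and 3.51 at day 14. Except where a setting itself removes genes or libraries, the cause was not tested. With the replicate block, 7582 genes were called for day 2 and 7116 for day 14, both against day 0, and 4031 between the later days, and no call of the 9 genes changed. Whether the numbers pair the libraries is unknown. Among same-numbered pairs, only day 2 replicate 1 and day 14 replicate 1 correlated over 0.1 (r 0.318), and the next highest r was 0.0825. Of the 9 libraries, 4 correlated best with their own number. With 3 libraries a day, such correlations cannot exclude pairing. TPM keep no depth, so the error of low values such as those of Epgn and Erbb4 cannot be given.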

Other observations

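Receptors of other growth factors were counted beside those of the EGFR family. Of 12 tested, 2 rose and 5 fell at day 2 against day 0, or 16.7% and 41.7% against 27.1% and 31.9% of all genes. At day 14 against day 0, 4 rose and 1 fell, or 33.3% and 8.33% against 36.2% and 18.8%. Under median-of-ratios scaling 3 rose and 2 fell, or 25% and 16.7% against 27.2% and 28.8%. At day 14 against day 2, 7 were higher and 0 lower, or 58.3% and 0% against 27.4% and 3.79% of all genes. Under median-of-ratios scaling 3 were higher and 1 lower there, or 25% and 8.33% against 13.1% and 11.1%. Fgfr3, a fibroblast growth factor receptor gene, had 42.1, 21.6 and 11.1 TPM at day 14 against 2.00, 1.81 and 2.44 TPM at day 0, a log2 change of 2.89 (limma adjusted p = 0.000377), and had 0.912, 1.87 and 2.12 TPM at day 2. Insr, the insulin receptor gene, rose by 1.49 at day 2 and by 1.26 at day 14 against day 0, and its relative Igf1r by 0.75 and by 0.85 (limma adjusted p = 2.16e-05, 0.000119, 0.00172 and 0.00116). Mst1r, the receptor gene for macrophage-stimulating protein, fell by 1.03 at day 2 and by 0.46 at day 14 (limma adjusted p = 0.000206 and 0.0190). Ephb4 rose by 0.41 at day 14 (limma adjusted p = 0.0133), a call lost under median-of-ratios scaling (0.234).

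The genes with levels most like those of the receptors, ligands and inhibitor were sought by Pearson correlation of log2(TPM + 1) over the 9 libraries, which share their days, among 9383 genes. For Erbb2 they were Acaa2 (r 0.982), Anxa4 (r 0.958) and Anxa13 (r 0.954). For Hbegf they were Iws1 (r 0.968), Polr2a (r 0.965) and Wnk1 (r 0.963), and for Errfi1 Klf2 (r 0.894), Zdhhc21 (r 0.879) and Prkg2 (r 0.874). For Erbb3, added after its values were seen, they were Sema4g (r 0.995), Dqx1 (r 0.988) and Camk2b (r 0.986). These are descriptions, with no p.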
